A study of Mus musculus with 2 samples.

Results

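The primary cilium genes described here are 38 genes for intraflagellar transport (IFT), its motors, the BBSome, the ciliary membrane and the transition zone, chosen by name from 23284 gene symbols. Each had 1 record in both libraries, and each reached at least 1 FPKM in both. FPKM scales fragment counts to the length of the transcript and the size of the library, so levels of different genes are compared per length. The data were 2 RNA sequencing libraries from dissected SmoM2 medulloblastoma, a tumour of the cerebellum, of mice. The knockout library came from genotype CAG-CreER, Rosa26-SmoM2, Brg1F/F, in which the Brg1 alleles are flanked by loxP sites. The wild-type library came from genotype CAG-CreER, Rosa26-SmoM2, Brg1+/+. Both genotypes carried the activated Smoothened transgene SmoM2 and a Cre recombinase driven by the CAG promoter, which is active in many cell types, and both received 10 tamoxifen injections, 1 every other day. The labels do not limit recombination to tumour cells, and they give neither the age of the mice nor the number of animals behind a library. The comparison addresses how loss of Brg1, the chromatin remodelling ATPase encoded by Smarca4, bears on gene expression in this Hedgehog-driven tumour.

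The primary cilium is a single antenna on the cell surface in which vertebrate cells process Hedgehog signals, and granule neuron precursors, the cells from which this tumour type arises, need it to respond to them. IFT-B particles, pulled by kinesin-II, carry cargo to the tip, and IFT-A particles, pulled by dynein-2, return it. The BBSome moves membrane proteins out of the cilium, and the transition zone at the base acts as a gate for proteins that enter or leave. Smoothened collects in the cilium when the pathway is on, and Ptch1 and Gpr161 leave it. Many cilium genes are regulated by RFX transcription factors, which bind a promoter element called the X-box.

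Each genotype has a single library, so no value below has an error, a replicate check or a p-value. Differences between individual animals and between genotypes cannot be told apart. "Higher" and "lower" compare these 2 libraries by the log2 ratio of (knockout FPKM + 1) over (wild-type FPKM + 1), and a fixed size of 2-fold stands in for a test. Smarca4, the targeted gene, had 3.76 FPKM in the knockout library, against 14.05 FPKM in the wild-type library (log2 ratio -1.66). The FPKM of the whole gene also covers exons outside the deleted part. Records of at least 1 FPKM numbered 12994 in the knockout library and 12006 in the wild-type library. The files give no read counts, and depth is therefore unknown. FPKM summed to 343028 in the knockout library and 388032 in the wild-type library. Small RNA genes made up 7.12% of that sum in the knockout and 14.1% in the wild-type library. Each FPKM comes with a deposited lower and upper bound. For the cilium genes, FPKM lay within its own bounds for 14 of 38 in the knockout and 11 of 38 in the wild-type library. Over all expressed records, FPKM lay outside its own bounds for 51.2% in the knockout and 49.0% in the wild-type library. Log2 ratios from the midpoint of the bounds are therefore given beside those from FPKM for some of the values that they move.

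Most cilium genes had similar levels in both tumours. These are bulk tissue libraries, in which fewer cells of a type and less RNA per cell cannot be told apart. Of the 38 genes, 31 lay within 1.5-fold, where 54.0% of all 13279 expressed records did. Bbs4 and Kif3c passed 2-fold upwards in the knockout library, 2 of 38 genes where 16.1% of all records were called, and B9d2 passed it downwards, 1 of 38 where 8.67% were called. After centring on the median of all records or division by the upper quartile, 1 gene was higher and 1 lower. At 1.5-fold, 5 of 38 were higher, where 28.1% of all records were called, and 2 were lower, where 18.0% were called. The log2 ratio was above 0 for 22 of 38 genes, against 54.8% of all records. The median log2 ratio was 0.06 over the 38 genes and 0.09 over all expressed records. The middle 50% of cilium genes lay between -0.27 and 0.34, and that of all records between -0.41 and 0.68. From the midpoints of the bounds the median was -0.10, and 7 genes with log2 ratios between 0.00 and 0.26 moved below 0. The deposited bounds of the 2 libraries lay apart with the knockout above for 12 cilium genes (41.6% of all records) and with the knockout below for 11 (36.1%). How the bounds were made is unknown here.

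**Figure D1:**
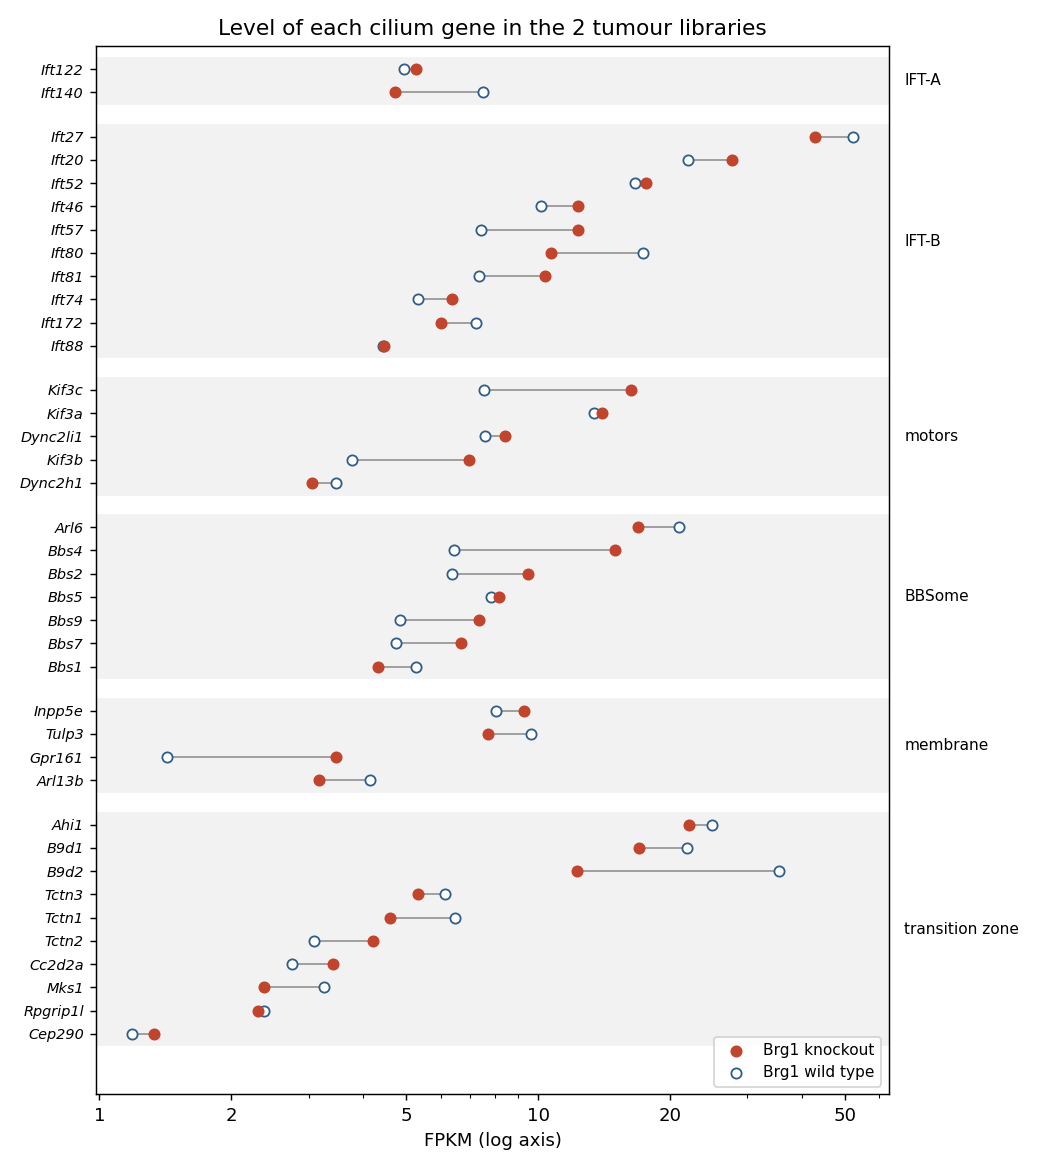
FPKM of each of the 38 cilium genes on a log axis, in the knockout library (filled) and the wild-type library (open), grouped by module and ordered by the knockout level. By FPKM Ift27 was the most abundant gene in both libraries and Cep290 the least. The widest gaps are those of B9d2, Bbs4, Kif3c and Gpr161.

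The order of the genes by level was much alike in both libraries. Over the 38 genes the rank correlation of FPKM was 0.88, and over all expressed records it was 0.80. Both are descriptions across genes, which are not replicates. The median cilium gene stood at percentile 43.0 of expressed records in the knockout library and at percentile 43.8 in the wild-type library. By FPKM Ift27 was the highest, at percentile 88.9 in the knockout and 91.3 in the wild-type library. Cep290 was the lowest, at percentiles 5.83 and 11.95 in the same order of libraries. The bound midpoints put Ift20 above Ift27 in the knockout library (32.9 against 26.2). They put Rpgrip1l below Cep290 in the knockout (2.31 against 2.87) and Gpr161 below it in the wild-type library (1.24 against 3.21).

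**Figure D2:**
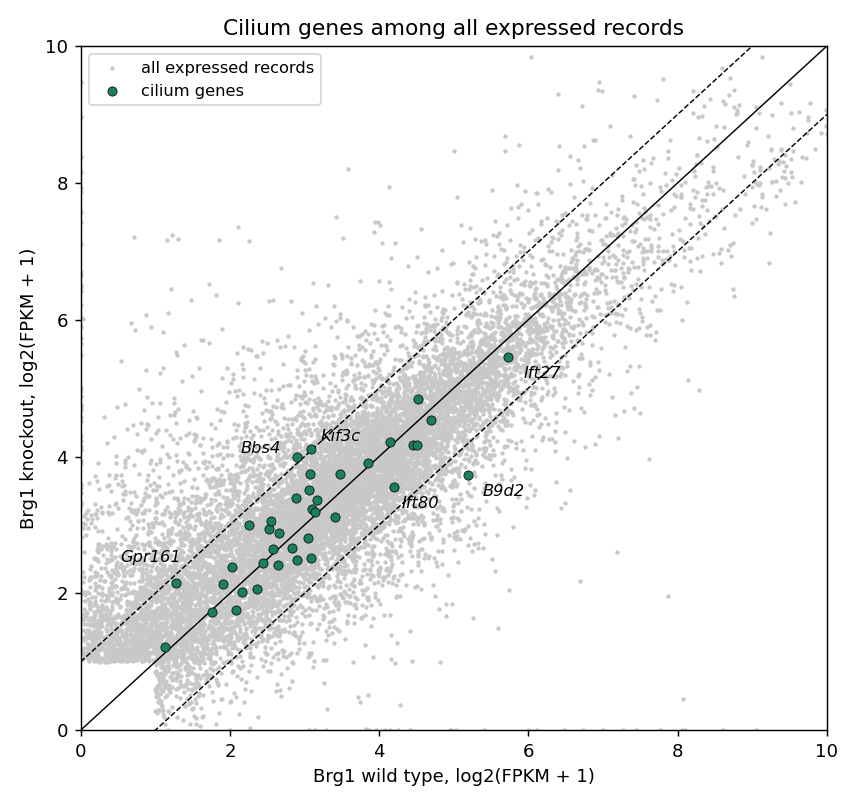
Level in the knockout library (vertical axis) against level in the wild-type library (horizontal axis), both as log2(FPKM + 1), for the 38 cilium genes (green) and all expressed records within the axes (grey). Dashed lines mark 2-fold, and B9d2, Kif3c and Bbs4 are the cilium genes outside them.

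IFT-A, the retrograde particle, was represented by its core subunits Ift122 and Ift140. Ift140 (chromosome 17, 25016086 to 25099497, mm10) had 4.72 FPKM in the knockout library and 7.50 FPKM in the wild-type library (log2 ratio -0.57). Its bounds, 5.60 to 6.38 in the knockout and 8.88 to 9.92 in the wild-type library, lay above the FPKM in both and did not overlap. Ift122 had 5.28 FPKM in the knockout and 4.95 FPKM in the wild-type library (log2 ratio 0.08). Neither passed 2-fold. By FPKM Ift140 was the lower of them in the knockout library, but by the bound midpoints it was the higher, at 5.99 against 5.28 for Ift122. In the wild-type library it was the higher by both.

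The 10 IFT-B genes summed to 150.6 FPKM in the knockout library and 150.0 FPKM in the wild-type library. None was 2-fold apart (0 of 10), where 16.1% of all records were higher and 8.67% lower. The log2 ratios ran from -0.65 to 0.67, with a median of 0.15 (-0.03 from the bound midpoints). Ift57 (chromosome 16, 49699294 to 49765126, mm10), a subunit of the peripheral subcomplex of IFT-B, had the highest ratio. It had 12.3 FPKM in the knockout library and 7.41 FPKM in the wild-type library (log2 ratio 0.67), and its bounds of 12.8 to 14.5 and 7.65 to 9.43 did not overlap. Ift80 (chromosome 3, 68892499 to 69004570, mm10), of the same subcomplex, had the lowest. It had 10.7 FPKM in the knockout library and 17.3 FPKM in the wild-type library (log2 ratio -0.65), with bounds of 8.48 to 9.61 and 15.6 to 17.4. These 2 genes of the same subcomplex thus stood on opposite sides. Ift57 shares 7.86% of its exon bases with Gm15518 on the other strand.

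The other IFT-B genes lay within 1.5-fold. Ift27, a small GTPase of the particle that also helps the BBSome leave the cilium, had 42.7 FPKM in the knockout and 52.1 FPKM in the wild-type library. Ift20, which also acts at the Golgi, had 27.7 FPKM in the knockout and 22.03 FPKM in the wild-type library. Ift88, the subunit mutated in the Oak Ridge polycystic kidney mouse, had 4.44 FPKM in both libraries, and its bound midpoints gave a log2 ratio of -0.26. Ift81 and Ift74 together bind tubulin as cargo. Ift81 had 10.3 FPKM in the knockout and 7.33 FPKM in the wild-type library (log2 ratio 0.45, or 0.20 from the bound midpoints). Ift74 had 6.36 FPKM in the knockout and 5.31 FPKM in the wild-type library (log2 ratio 0.22, or 0.02 from the bound midpoints), and its bounds overlapped. The core subunits Ift46 and Ift52 were above 0 by FPKM and just below it from the bound midpoints. Ift46 had 12.4 FPKM in the knockout and 10.2 FPKM in the wild-type library (log2 ratio 0.26, or -0.04 from the bound midpoints). Ift52 had 17.6 FPKM in the knockout and 16.7 FPKM in the wild-type library. Ift172, the largest IFT-B subunit, had 6.01 FPKM in the knockout and 7.23 FPKM in the wild-type library.

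The promoter window of Ift57 is shown because it was the 1 window of a cilium gene with 2 X-box matches. An X-box was searched for as GTNNCC followed by GGNNAC with 0 to 3 bases between them, which reads the same on both strands. The window covers chr16:49699044-49699343 of GRCm38.p6 on the plus strand (RefSeq), from 250 bases before the gene start to 50 bases after it, with the matches in capitals. They begin 87 and 60 bases before the start.
Ift57: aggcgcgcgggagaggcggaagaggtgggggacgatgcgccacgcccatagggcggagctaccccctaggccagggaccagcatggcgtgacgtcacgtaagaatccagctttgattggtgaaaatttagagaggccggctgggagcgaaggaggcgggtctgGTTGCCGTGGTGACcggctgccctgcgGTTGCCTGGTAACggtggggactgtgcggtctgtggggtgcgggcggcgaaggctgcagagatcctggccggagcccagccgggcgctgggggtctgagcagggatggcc

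The motor genes code for the kinesin-II subunits Kif3a, Kif3b and Kif3c and the dynein-2 subunits Dync2h1 and Dync2li1. Kif3a pairs with either Kif3b or Kif3c, of which Kif3b is the main ciliary partner and Kif3c is known from neurons. Kif3c (chromosome 12, 3365132 to 3406494, mm10) had 16.3 FPKM in the knockout library and 7.52 FPKM in the wild-type library, 2.17-fold higher on the FPKM scale (log2 ratio 1.02). Its bounds of 23.3 to 25.1 in the knockout and 10.7 to 11.8 in the wild-type library lay above the FPKM in both, and their midpoints gave a log2 ratio of 1.04. Centring on the median of all records took it inside 2-fold (log2 ratio 0.94). In GENCODE M21, 35.3% of the exon bases of Kif3c are shared with the antisense gene 1110002L01Rik, and no source used here says that counting used strand. That gene was listed at 2.29 FPKM in the knockout and 3.70 FPKM in the wild-type library.

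Kif3b (chromosome 2, 153291416 to 153333389, mm10) had 6.97 FPKM in the knockout library and 3.77 FPKM in the wild-type library (log2 ratio 0.74, or 0.46 from the bound midpoints). Its bounds, 13.8 to 15.1 in the knockout and 9.61 to 10.8 in the wild-type library, did not overlap. Kif3a, the partner of both, had 13.99 FPKM in the knockout and 13.4 FPKM in the wild-type library (log2 ratio 0.05). The bounds of Kif3a had the opposite order, 23.1 to 24.7 in the knockout and 27.4 to 29.4 in the wild-type library (log2 ratio -0.24 from the midpoints). Kif3b and Kif3c thus summed to 23.3 FPKM in the knockout library and 11.3 FPKM in the wild-type library beside a like level of Kif3a. Kif3c made up 70.1% of that sum in the knockout and 66.6% in the wild-type library, or 62.6% and 52.5% from the bound midpoints in the same order of libraries. The dynein-2 genes lay within 1.5-fold. Dync2h1, the heavy chain, had 3.06 FPKM in the knockout and 3.46 FPKM in the wild-type library. Dync2li1, the light intermediate chain, had 8.41 FPKM in the knockout and 7.56 FPKM in the wild-type library. Its log2 ratio was 0.14, or -0.03 from the bound midpoints.

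The BBSome group had a median log2 ratio of 0.42 (0.34 from the bound midpoints, 0.29 as a mean). It held 6 subunits and Arl6, the GTPase that recruits the BBSome to membranes. Bbs4 (chromosome 9, 59321966 to 59353508, mm10), a subunit that binds the centriolar satellite protein PCM1, was the cilium gene with the highest ratio of all. It had 14.96 FPKM in the knockout library and 6.45 FPKM in the wild-type library, 2.32-fold higher on the FPKM scale (log2 ratio 1.10). Its bounds were 18.2 to 20.3 in the knockout and 7.64 to 9.42 in the wild-type library, above the FPKM in both, and their midpoints gave 1.09. Bbs4 made up 22.1% of the summed FPKM of the group in the knockout library and 11.4% in the wild-type library. It shares 3.21% of its exon bases with Adpgk on the other strand.

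The promoter window of Bbs4 is shown as that of the 1 gene at least 2-fold apart that held an X-box match. It covers chr9:59353459-59353758 of GRCm38.p6 on the minus strand (RefSeq), and the match, in capitals, begins at base 24 of the gene.
Bbs4: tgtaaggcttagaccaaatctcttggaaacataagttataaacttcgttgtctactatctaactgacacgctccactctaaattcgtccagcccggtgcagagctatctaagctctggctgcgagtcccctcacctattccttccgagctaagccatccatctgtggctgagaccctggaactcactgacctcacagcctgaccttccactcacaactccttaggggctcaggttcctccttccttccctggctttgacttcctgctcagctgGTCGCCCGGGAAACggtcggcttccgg

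A further 3 BBSome subunits were higher by less than 2-fold. Bbs9, a scaffold subunit, had 7.33 FPKM in the knockout and 4.84 FPKM in the wild-type library (log2 ratio 0.51). Bbs2 had 9.48 FPKM in the knockout and 6.37 FPKM in the wild-type library (log2 ratio 0.51). Bbs7, which forms a subcomplex with Bbs2 and Bbs9, had 6.67 FPKM in the knockout and 4.75 FPKM in the wild-type library (log2 ratio 0.42). For these subunits the bounds of the 2 libraries lay apart with the knockout above, as they did for 41.6% of all records. Bbs5, which binds membrane lipids, had 8.13 FPKM in the knockout and 7.82 FPKM in the wild-type library (log2 ratio 0.05, or -0.08 from the bound midpoints). Bbs1, the subunit that contacts Arl6, had 4.32 FPKM in the knockout and 5.27 FPKM in the wild-type library. Arl6 itself had 16.9 FPKM in the knockout and 20.9 FPKM in the wild-type library. The GTPase and the subunit it binds were thus on the lower side (log2 ratios -0.29 and -0.24), and the Bbs2, Bbs7 and Bbs9 trio on the higher side. X-box matches were also found in the windows of Bbs1 and Bbs7, printed with 8 bases on each side.
Bbs1: ctgagctgGTTGCCAAGGCGACgcctggga
Bbs7: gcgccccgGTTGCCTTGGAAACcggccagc

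The ciliary membrane group held 4 genes. Gpr161 (chromosome 1, 165295766 to 165321851, mm10), a G protein-coupled receptor that restrains Hedgehog signalling from within the cilium, had 3.46 FPKM in the knockout library and 1.43 FPKM in the wild-type library. This is 2.43-fold on the FPKM scale, but the added 1 FPKM put it inside 2-fold (log2 ratio 0.88). With 0.1 FPKM added the log2 ratio was 1.22. Its bounds, 2.68 to 3.70 in the knockout and 0.902 to 1.59 in the wild-type library, did not overlap. Tulp3, which together with IFT-A brings Gpr161 into the cilium, had 7.67 FPKM in the knockout and 9.63 FPKM in the wild-type library (log2 ratio -0.29). Receptor and carrier thus stood on opposite sides. Arl13b, the GTPase that marks the ciliary membrane, had 3.16 FPKM in the knockout and 4.14 FPKM in the wild-type library (log2 ratio -0.31, or -0.57 from the bound midpoints). Inpp5e, the lipid phosphatase that Arl13b retains in the cilium, had 9.28 FPKM in the knockout and 8.002 FPKM in the wild-type library (log2 ratio 0.19). It shares 20.3% of its exon bases with Pmpca on the other strand. Pmpca was listed at 34.2 FPKM in the knockout and 44.3 FPKM in the wild-type library.

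The transition zone genes had a median log2 ratio of -0.17, and 7 of 10 lay below 0, where 45.2% of all records did. The median was -0.01 with the same FPKM sum in each library, or -0.11 with small RNA genes left out of that sum. It was -0.35 over the genes that reached 5 FPKM. B9d2 (chromosome 7, 25681158 to 25686558, mm10), a B9 domain protein of the gate complex, had the lowest log2 ratio of all 38 cilium genes. It had 12.3 FPKM in the knockout library and 35.4 FPKM in the wild-type library, or 34.7% of the wild-type level (log2 ratio -1.45). Its bounds were 6.11 to 8.13 in the knockout and 14.3 to 17.8 in the wild-type library, below the FPKM in both, and their midpoints gave -1.07. B9d2 made up 16.4% of the summed transition zone FPKM in the knockout and 32.9% in the wild-type library. Without it the other 9 genes summed to 62.6 FPKM in the knockout and 72.0 FPKM in the wild-type library, with log2 ratios from -0.42 to 0.35. B9d1, its partner, had 17.0 FPKM in the knockout and 21.8 FPKM in the wild-type library (log2 ratio -0.35). Mks1, the third B9 protein, had 2.37 FPKM in the knockout and 3.25 FPKM in the wild-type library (log2 ratio -0.33). All 3 genes of the B9 complex were thus on the lower side, but for B9d1 and Mks1 the bounds of the 2 libraries overlapped.

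The tectonic genes, which code for gate proteins with a secreted or membrane form, were split. Tctn1 had 4.59 FPKM in the knockout and 6.48 FPKM in the wild-type library (log2 ratio -0.42). Tctn3 had 5.32 FPKM in the knockout and 6.14 FPKM in the wild-type library (log2 ratio -0.18). Tctn2 stood on the other side. It had 4.20 FPKM in the knockout and 3.09 FPKM in the wild-type library (log2 ratio 0.35). The Tctn1 exons share 19.0% of their bases with Hvcn1 on the other strand. Ahi1, the Jouberin gene, was the most abundant transition zone gene of the knockout library, with 22.1 FPKM, against 24.9 FPKM in the wild-type library. The genes of the large scaffold proteins had low levels by FPKM, but for Cep290 and Cc2d2a the bounds lay above the FPKM in both libraries. Cep290 had 1.33 FPKM in the knockout and 1.19 FPKM in the wild-type library (log2 ratio 0.09, or -0.12 from the bound midpoints). It shares 7.58% of its exon bases with 4930430F08Rik on the other strand, listed at 12.4 FPKM in the knockout and 8.74 FPKM in the wild-type library. Rpgrip1l had 2.30 FPKM in the knockout and 2.37 FPKM in the wild-type library. Cc2d2a had 3.42 FPKM in the knockout and 2.75 FPKM in the wild-type library (log2 ratio 0.23, or 0.10 from the bound midpoints). All 3 lay within 1.5-fold. The tectonic genes, Ahi1 and Mks1 held X-box matches, and they are shown side by side because genes with such a match stood on both sides of 0. Flanks of 8 bases are in lower case, and the Tctn1 match ends at the end of its window.
Tctn1: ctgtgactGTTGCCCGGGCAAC
Tctn2: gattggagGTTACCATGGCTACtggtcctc
Tctn3: tcccagcgGTTGCCAGGTAACgggaacca
Ahi1: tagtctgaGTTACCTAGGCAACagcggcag
Mks1: gcgtctccGTTGCCAGGGGAACgaggcacc

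**Figure D3:**
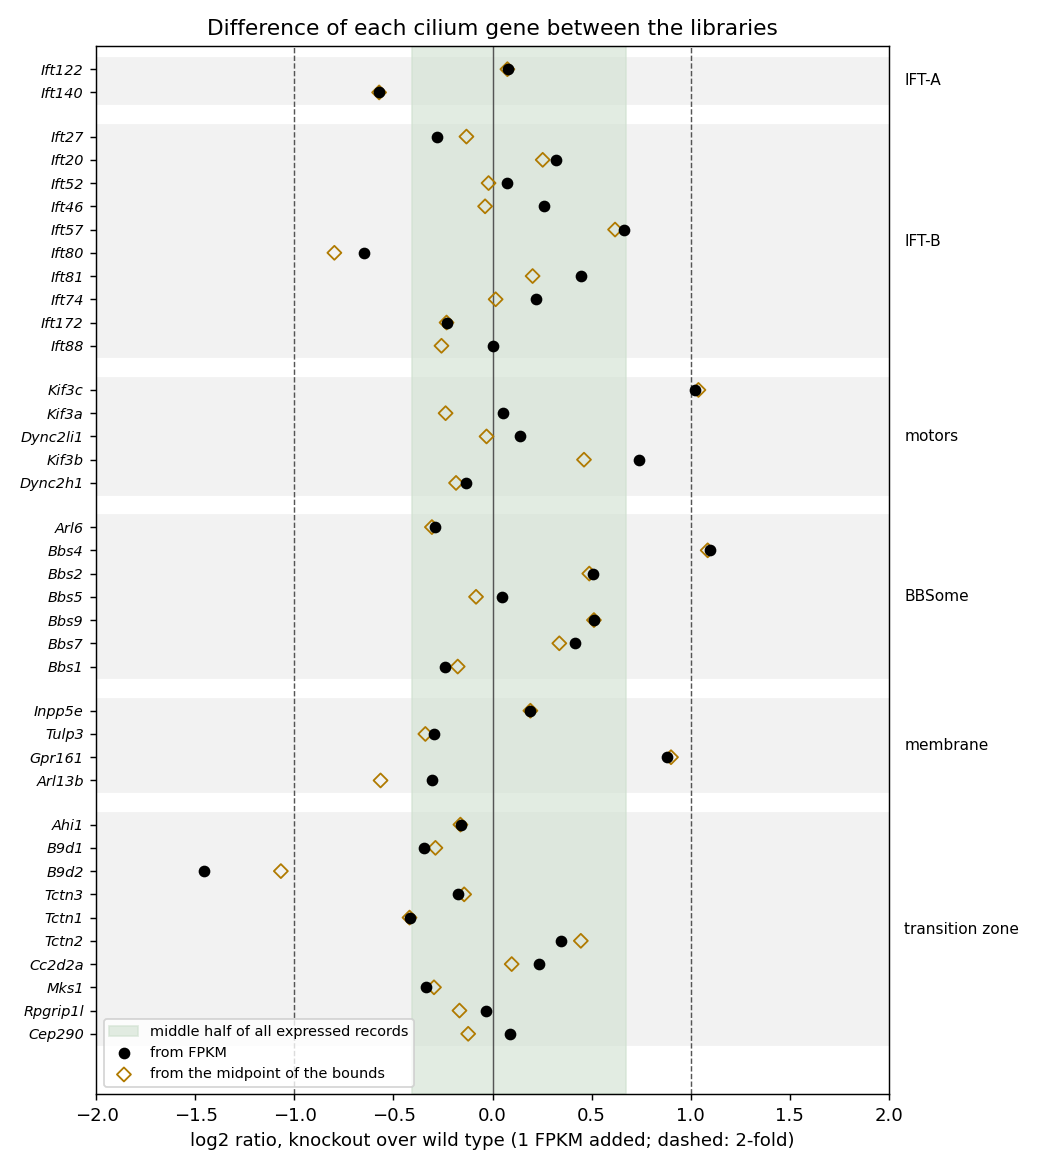
Log2 ratio of knockout over wild type for each cilium gene, from FPKM (dots) and from the midpoint of the deposited bounds (diamonds), with 1 FPKM added. The shaded band runs from -0.41 to 0.68, between the quartiles of all expressed records, and holds 30 of the 38 dots.

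Promoter windows of 300 bases were found by symbol for 34 of the 38 genes, all but Ift80, Ift81, Ift122 and Dync2li1. An X-box match stood in a window of 9 of the 34 genes (26.5%), against 4.38% of all 27025 genes with a window and 5.46% of the 9421 of these that were expressed here. The 6 letters GTTGCC, on either strand, stood in a window of 19 of the 34 genes (55.9%), against 14.1% of all genes and 14.7% of those expressed. The letters GTTGCC can be part of an X-box match, and a match is not a measured binding site. Of the 9 genes with an X-box match, 4 had a log2 ratio above 0 and 5 below it, from -0.42 to 1.10, with a median of -0.16. The 25 genes with a window and no match ran from -1.45 to 1.02, with a median of 0.05.

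The RFX genes themselves had a median log2 ratio of -0.11 over 6. Rfx3, a regulator of ciliogenesis, had 13.4 FPKM in the knockout and 14.8 FPKM in the wild-type library (log2 ratio -0.13). Rfx4, which is known from glia and neural progenitors, was the 1 of 6 at least 2-fold higher, near the 16.1% of all records, with 10.7 FPKM in the knockout and 3.67 FPKM in the wild-type library (log2 ratio 1.32). Rfx7 had 14.6 FPKM in the knockout and 29.9 FPKM in the wild-type library (log2 ratio -0.98). Astrocyte and Bergmann glia markers were higher along with Rfx4, 7 of 7 by at least 2-fold, and summed to 2441 FPKM in the knockout and 442.3 FPKM in the wild-type library. Their part in the Rfx4 value was not tested.

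Of 41 other genes listed with the same modules, not all of them subunits, 35 were expressed. Their median log2 ratio was -0.19 (-0.34 from the bound midpoints). Of the 35, 26 lay below 0, where 45.2% of all records did. At 2-fold 0 of 35 were higher, against 16.1% of all records, and 3 were lower, a share near the 8.67% of all records. Tmem107, a transition zone membrane protein gene, had 4.89 FPKM in the knockout and 18.5 FPKM in the wild-type library (log2 ratio -1.73). Tmem216, of the same gate, had 10.03 FPKM in the knockout and 24.2 FPKM in the wild-type library (log2 ratio -1.19, or -0.87 from the bound midpoints, which puts it inside 2-fold). Dynll1, a light chain of several dyneins, had 85.9 FPKM in the knockout and 218.7 FPKM in the wild-type library (log2 ratio -1.34). The medians of these other genes were below 0 for every module they were listed with. They were -0.13 over 3 for IFT-A, -0.14 over 7 for IFT-B and -0.37 over 6 for the motors. For the BBSome the median was -0.24 over 6, and for the transition zone -0.46 over 13. For IFT-B, the motors and the BBSome this is the opposite sign to the FPKM median of the genes among the 38. From the bound midpoints the medians among the 38 were -0.03 for IFT-B, -0.03 for the motors and 0.34 for the BBSome. By midpoints the signs were thus opposite for the BBSome alone. Of the 6 others listed with the BBSome, which include genes that do not code for subunits, 5 lay below 0. Among them was the subunit Ttc8 (9.28 FPKM in the knockout and 12.04 FPKM in the wild-type library, log2 ratio -0.34). Of the 6 other motor genes 4 lay below 0. Kifap3, the non-motor subunit of kinesin-II, had 39.5 FPKM in the knockout and 23.04 FPKM in the wild-type library (log2 ratio 0.75), the highest of them. Wdr34, a dynein-2 intermediate chain, had 8.67 FPKM in the knockout and 13.8 FPKM in the wild-type library (log2 ratio -0.62).

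The genes for cilium disassembly had a wider spread than the 38. Of 9 genes for cilium disassembly, 4 fell at least 2-fold below the wild-type library in the knockout and 1 was higher (median -0.91), against 8.67% of all records lower and 16.1% higher. Aurka, the mitotic kinase that also starts disassembly, had 6.999 FPKM in the knockout and 38.2 FPKM in the wild-type library (log2 ratio -2.29). Plk1, another mitotic kinase, had 5.16 FPKM in the knockout and 27.8 FPKM in the wild-type library (-2.22). Nek2 and Tchp were also lower (-1.26 and -1.11), and Nedd9, a scaffold that activates Aurka, was higher (3.71 FPKM in the knockout and 0.999 FPKM in the wild-type library). Cell cycle markers were lower in the same library, 10 of 10 by at least 2-fold, and summed to 263.9 FPKM in the knockout and 968.2 FPKM in the wild-type library. Their part in the values of the mitotic kinases was not tested.

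The centriole appendage and ciliogenesis genes had a median log2 ratio of -0.13 over 15, with 1 lower by at least 2-fold, near the 8.67% of all records, and 0 higher, against 16.1%. The lower gene was Cep97, which restrains ciliogenesis at the mother centriole, with 4.57 FPKM in the knockout and 13.8 FPKM in the wild-type library (log2 ratio -1.41). From the bound midpoints Ccdc41, Ccdc123 and Sclt1 also passed 2-fold downwards (-1.06, -1.15 and -1.05), where 1166 of 13374 records did. Among Hedgehog transducers and receptors that pass through the cilium, 4 of 11 were at least 2-fold lower and 0 higher (median -0.95), against 8.67% and 16.1% of all records. Cdon, a Hedgehog co-receptor gene, had 2.46 FPKM in the knockout and 0.820 FPKM in the wild-type library. This is 3.004-fold higher on the FPKM scale, but the added 1 FPKM put it inside 2-fold (log2 ratio 0.93). Kif7 and Evc were 4.09-fold and 2.48-fold lower on that scale, and were also put inside 2-fold (-0.95 and -0.97). From the bound midpoints Evc passed it (-1.07). Smo, the gene for Smoothened, had 18.2 FPKM in the knockout and 25.1 FPKM in the wild-type library. Sufu, which holds Gli proteins, had 17.0 FPKM in the knockout and 18.6 FPKM in the wild-type library. The genes lower by at least 2-fold were Gli1, Gli2, Gas1 and Boc, with log2 ratios of -3.17, -2.77, -1.91 and -1.43. Of 3 expressed genes for ciliary membrane signalling, Adcy3, Pkd1 and Pkd2, 0 were 2-fold apart, and the 10 ubiquitous genes taken for comparison had a median of -0.19 with 0 past 2-fold.

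Markers of neurons, glia, microglia and endothelium were mostly higher in the knockout library, where 16.1% of all records passed 2-fold upwards and 8.67% downwards. Markers of the tumour type were present in both libraries, and 6 of 11 passed 2-fold downwards in the knockout. They summed to 402.7 FPKM in the knockout and 835.6 FPKM in the wild-type library, and none was at 0. Atoh1, the transcription factor of granule precursors, had 10.4 FPKM in the knockout and 67.03 FPKM in the wild-type library. By FPKM 2 of the 11 lay above 0, Pax6 (log2 ratio 0.79) and Zic1 (0.42, or 0.01 from the bound midpoints). Purkinje cell markers were higher, 7 of 7, and summed to 695.2 FPKM in the knockout and 11.2 FPKM in the wild-type library. Granule neuron markers were at least 2-fold higher for 6 of 7 and summed to 536.3 FPKM in the knockout and 118.5 FPKM in the wild-type library, leaving out Dcx, which was listed at 0 with status FAIL in the wild-type library. Interneuron markers (4 of 4 higher) summed to 400.4 FPKM in the knockout and 13.2 FPKM in the wild-type library, and oligodendrocyte markers (6 of 6) to 669.8 FPKM in the knockout and 59.6 FPKM in the wild-type library. Microglia markers (5 of 6) summed to 79.1 FPKM in the knockout and 28.2 FPKM in the wild-type library, and endothelial markers (2 of 4) to 87.3 FPKM in the knockout and 23.8 FPKM in the wild-type library. The part of these cells in the values of Kif3c, Bbs4, Gpr161 and B9d2 was not tested.

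Genes of motile cilia, which ependymal cells carry, were mostly low. Of 15 such genes found, 10 stayed under 1 FPKM in both libraries, a level that 13279 of all 23746 records reached in at least 1 library. The 5 others had a median log2 ratio of 0.73 (0.98 from the bound midpoints), with 0 past 2-fold by FPKM with 1 added. Rsph9, of the radial spokes, was the most abundant, with 8.79 FPKM in the knockout and 9.10 FPKM in the wild-type library (log2 ratio -0.05). Ccdc39, an axonemal ruler protein gene, had 1.41 FPKM in the knockout and 1.45 FPKM in the wild-type library (log2 ratio -0.02). The remaining 3 lay above 0. Foxj1, the master regulator of motile cilium genes, had 5.80 FPKM in the knockout and 2.51 FPKM in the wild-type library. Its log2 ratio was 0.95, or 1.07 from the bound midpoints. Tekt2, of the ciliary axoneme, had 3.86 FPKM in the knockout and 1.45 FPKM in the wild-type library (0.99, or 1.21 from the bound midpoints). Hydin, of the motile central apparatus, was listed at 0.120 FPKM in the knockout and 0.0135 FPKM in the wild-type library. Ependyma and choroid plexus markers summed to 1108 FPKM in the knockout and 1051 FPKM in the wild-type library, nearly all of it Ttr. By the log2 ratio from FPKM 0 of 6 were 2-fold apart, where 16.1% of all records were higher and 8.67% lower. From the bound midpoints Foxj1 and Otx2 passed 2-fold on opposite sides (1.07 and -1.06).

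**Figure D4:**
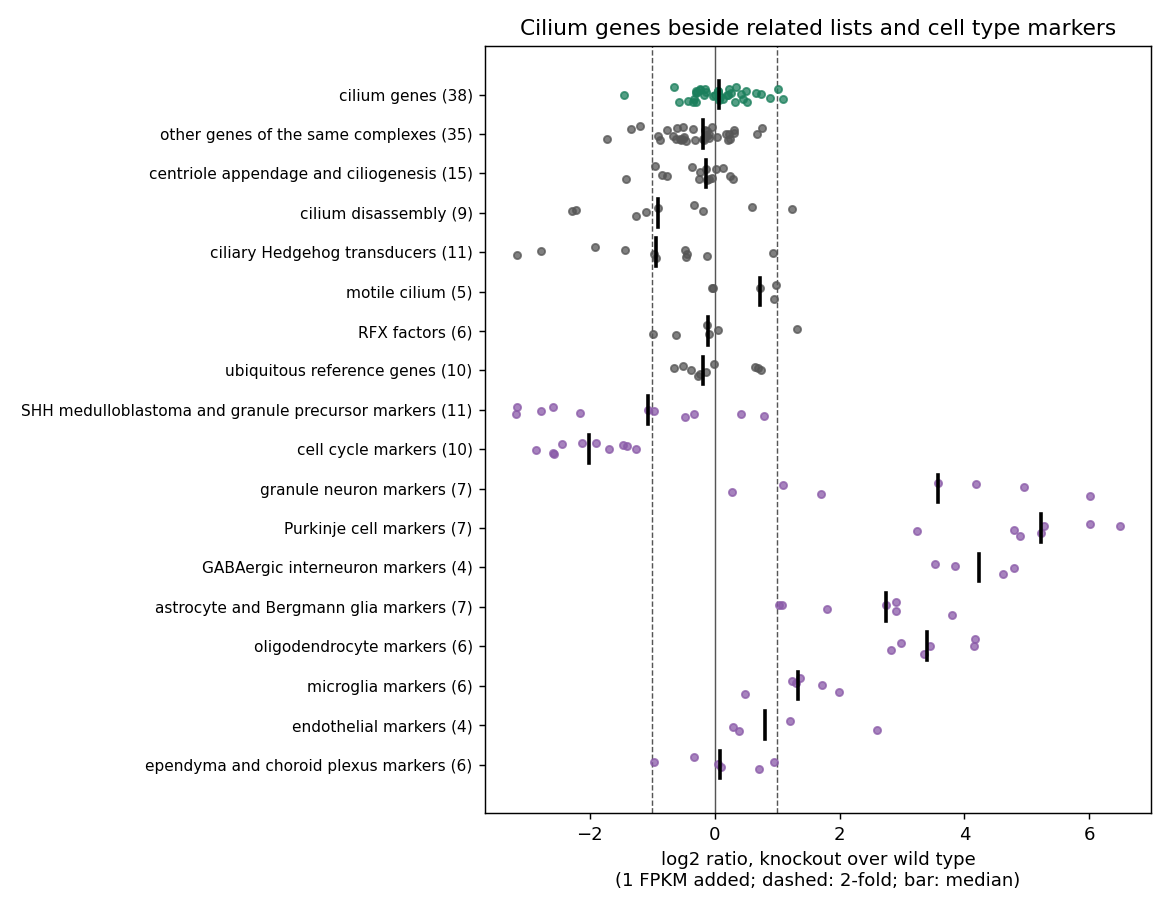
Log2 ratio of knockout over wild type for each expressed gene (points) of the cilium genes, related lists and cell type markers, with the number of genes in brackets and the median as a bar. The 38 cilium genes lie between -1.45 and 1.10 around a median of 0.06, whereas all 10 cell cycle markers lie below -1 and all 7 Purkinje cell markers above 1.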

How the data were processed

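RNA sequencing libraries of total RNA from SmoM2 medulloblastoma were deposited by the authors as 1 table each, which per the file headers holds FPKM for every gene beside 2 bounds (low and high) and a status. Cuffdiff 2.1.1 and mm10 are named in the submitters' processing notes, with no statement of what each was used for. Not given in the sources used here: aligner, annotation, filters, strand, and the method behind the bounds. No read counts are given: among 650 records under 0.05 FPKM and above 0 in both libraries, the fullest bin of the log2 ratio (width 0.1) held 50, and no whole reads were recovered, so depth and counting precision are unknown. Start positions count from 0 in the files and from 1 here.

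The tables held 23746 records, of which 13279 reached 1 FPKM in at least 1 library and were called expressed. The log2 ratio is log2((knockout FPKM + 1)/(wild-type FPKM + 1)), and the added 1 FPKM understates differences of low genes. With 1 library per genotype a 2-fold size rule took the place of a test. The cilium genes and the lists were chosen with earlier results of these data known. All 38 cilium genes are given, those at least 1.5-fold apart or with the 3 highest or lowest ratios in more detail. Of other lists, genes at least 2-fold apart or abundant are named, and some others for their role, chosen after their values were seen. Promoter windows are from RefSeq (GRCm38.p6), and exon overlaps from GENCODE M21. List genes of a status other than OK were left out. The ratio and the 2-fold rule were run on simulated data with 4-fold differences and an assumed noise. That check of the code does not measure the error of real values near 2-fold. Alternatives were pseudocounts, scalings, filters, the midpoint of the bounds, leaving out records of another status, fold sizes of 1.5 and 4, and the mean of the list in place of its median. Tables were computed with pandas 2.3.3 and numpy 2.4.6 under Python 3.11.15, and figures were drawn with matplotlib 3.10.9.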

Additional observations from a re-analysis of the deposited data

How the results depend on the processing

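Of the 14 alternatives, 7 can move the ratio of a single gene. Bbs4 and B9d2 stayed past 2-fold in 7 of these 7, with log2 ratios from 1.01 to 1.26 for Bbs4 and from -1.54 to -1.07 for B9d2. Kif3c stayed past it in 5 of 7, and fell inside it after centring on the median and after division by the upper quartile, so that 1 cilium gene in place of 2 was at least 2-fold higher under each. Gpr161 passed 2-fold in 3 of 7. Counts at 1.5-fold were 5 higher and 2 lower, and at 4-fold 0 and 0. The median of the 38 genes was 0.21 with the same FPKM sum in each library, where the median of all records was 0.25. With small RNA genes left out of that sum these medians were 0.12 and 0.14. From the midpoints of the bounds the median of the 38 genes was -0.10. No paired analysis was possible because each genotype has 1 library. Leaving out a replicate was not possible for the same reason. Neither the depth nor the spread between animals is known, so no difference here has an error.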
